A study of Homo sapiens with 6 samples.

Results

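Oxidative phosphorylation subunits are the proteins that make up the respiratory chain (complexes I to IV) and the ATP synthase (complex V) of the inner mitochondrial membrane. Their genes were described here in T24, an established human cell line labelled as bladder urothelial carcinoma, after exposure to transforming growth factor β1 (TGF-β1). Of 58735 gene rows in the deposited table, 86 carried the name of such a subunit and 83 of these had at least 1 FPKM (fragments scaled to exon length and library size) in all 6 libraries. The 83 members comprised 70 genes of the nuclear genome and 13 genes of the mitochondrial genome, which were treated apart. By complex, the nuclear members numbered 34 for complex I, 4 for complex II, 9 for complex III, 11 for complex IV (NDUFA4 included) and 12 for complex V, and the mitochondrial members 7, 0, 1, 3 and 2. The members were chosen by name and selected on their FPKM level, which therefore is a description. The difference between the groups was known from an earlier pass over these files when the set was proposed, so its direction is given as a description.

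The comparison was between 3 libraries labelled control and 3 labelled TGF-β1, all from wild-type T24 cells at day 2. The TGF-β1 libraries came from cells given 10 ng/ml for 48 h, and both groups were grown in medium with 10% fetal bovine serum and antibiotics. All cells belong to 1 line in culture, and whether a group's libraries stem from different cultures is not labelled. Each p-value therefore covers the spread of these libraries alone, which may be technical.

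The respiratory chain passes electrons from NADH and succinate to oxygen and pumps protons across the inner membrane, and the ATP synthase uses the returning protons to make ATP. Complexes I, III, IV and V combine subunits read from nuclear genes with a small number read from mitochondrial DNA, whereas complex II is wholly nuclear-encoded. Nuclear respiratory factor 1 (NRF1), factors of the ETS family (GABP) and YY1 are known to bind promoters of many of the nuclear genes, and TFAM and the mitochondrial RNA polymerase transcribe the mitochondrial ones as long joint transcripts.

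Each library held 53591796 to 60200816 reads, of which 93.52% to 95.47% were mapped, and 20703945 to 23678772 fragments lay in genes whose symbol was matched. PMEPA1 and SMAD7, which are known to respond to TGF-β, separated the groups as labelled: PMEPA1 was 15.2, 14.6 and 12.4 FPKM in the controls and 75.3, 63.6 and 66.2 FPKM after TGF-β1 (log2 change 2.20, SE 0.11, limma adjusted p = 7.1e-06), and SMAD7 rose by 1.14 on the log2 scale (SE 0.12, adjusted p = 0.00055). Of 15 urothelial and epithelial markers, 6 had at least 1 FPKM in all 6 libraries, and the median level of the 15 was 0.224 FPKM. The keratin genes KRT8, KRT18 and KRT7 were detected, while KRT5, KRT19 and UPK3A were listed at 0 in all 6 libraries. None of the 7 fibroblast, 3 endothelial and 4 leukocyte markers reached 1 FPKM, and their summed levels were at most 0.188, 0.745 and 0.0404 FPKM in any library. Summed epithelial markers ran from 581 to 745 FPKM in the controls and from 516 to 542 FPKM after TGF-β1.

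Mitochondrial and nuclear subunits differed in level throughout. The 13 mitochondrial genes together took 14.4% to 16.7% of all FPKM, and the 70 nuclear genes took 1.28% to 1.503%. In fragments, before division by gene length, the mitochondrial genes held 4.12% to 4.84% of the library. The median mean FPKM was 1722 for mitochondrial members, 36.7 for nuclear members and 6.64 for all 11363 genes tested. FPKM divides by the length of all annotated exons of a gene, so a gene with long alternative exons is scaled down. ATP5F1A and ATP5F1B, the α and β subunits of the catalytic head of the ATP synthase, averaged 65.7 and 437 FPKM, with annotated lengths of 10908 and 2322 bases and 16428 and 23248 fragments per library.

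Among nuclear members the levels ran from 3.19 FPKM for NDUFA5 to 437 FPKM for ATP5F1B, a 137-fold range. Just inside the level rule lay NDUFA5, NDUFA11 and NDUFA9, whose lowest libraries held 2.95, 3.17 and 3.34 FPKM. Just outside lay NDUFA13 (0.358 to 0.865 FPKM), NDUFA7 (0.253 to 0.735 FPKM) and NDUFV2 (0.0652 to 0.351 FPKM), with at most 53, 24 and 22 fragments in any library. The exons of these 3 genes overlap other annotated genes over 21.0%, 33.5% and 28.4% of their length, and their low values were not used.

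No nuclear member passed the test at an adjusted p of 0.05: limma called 0 of 70 higher and 0 lower, beside 277 of 11363 genes in either direction (2.44%), 130 higher (1.14%) and 147 lower (1.29%). At an unadjusted p under 0.05, 21 nuclear members were lower and 0 higher, where 13.9% of all genes tested were lower and 11.2% higher. The smallest adjusted p among them was 0.084. The log2 changes, on the log2(FPKM + 1) scale, ran from −0.70 to 0.26 with a median of −0.13, beside 0.01 over all genes, and 54 of 70 were below 0, as were 48% of all genes. Scaled to the summed nuclear FPKM of each library, 40 of 70 were below 0 with a median of −0.05, beside 36.7% of all genes and a median of 0.08. After quantile normalization 44 were below 0 with a median of −0.08, beside 45.9% of all genes and a median of 0.02. The same tool with precision weights on the recovered fragments (voom) called 12 nuclear members lower and 0 higher, beside 6.37% of genes lower.

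**Figure D1:**
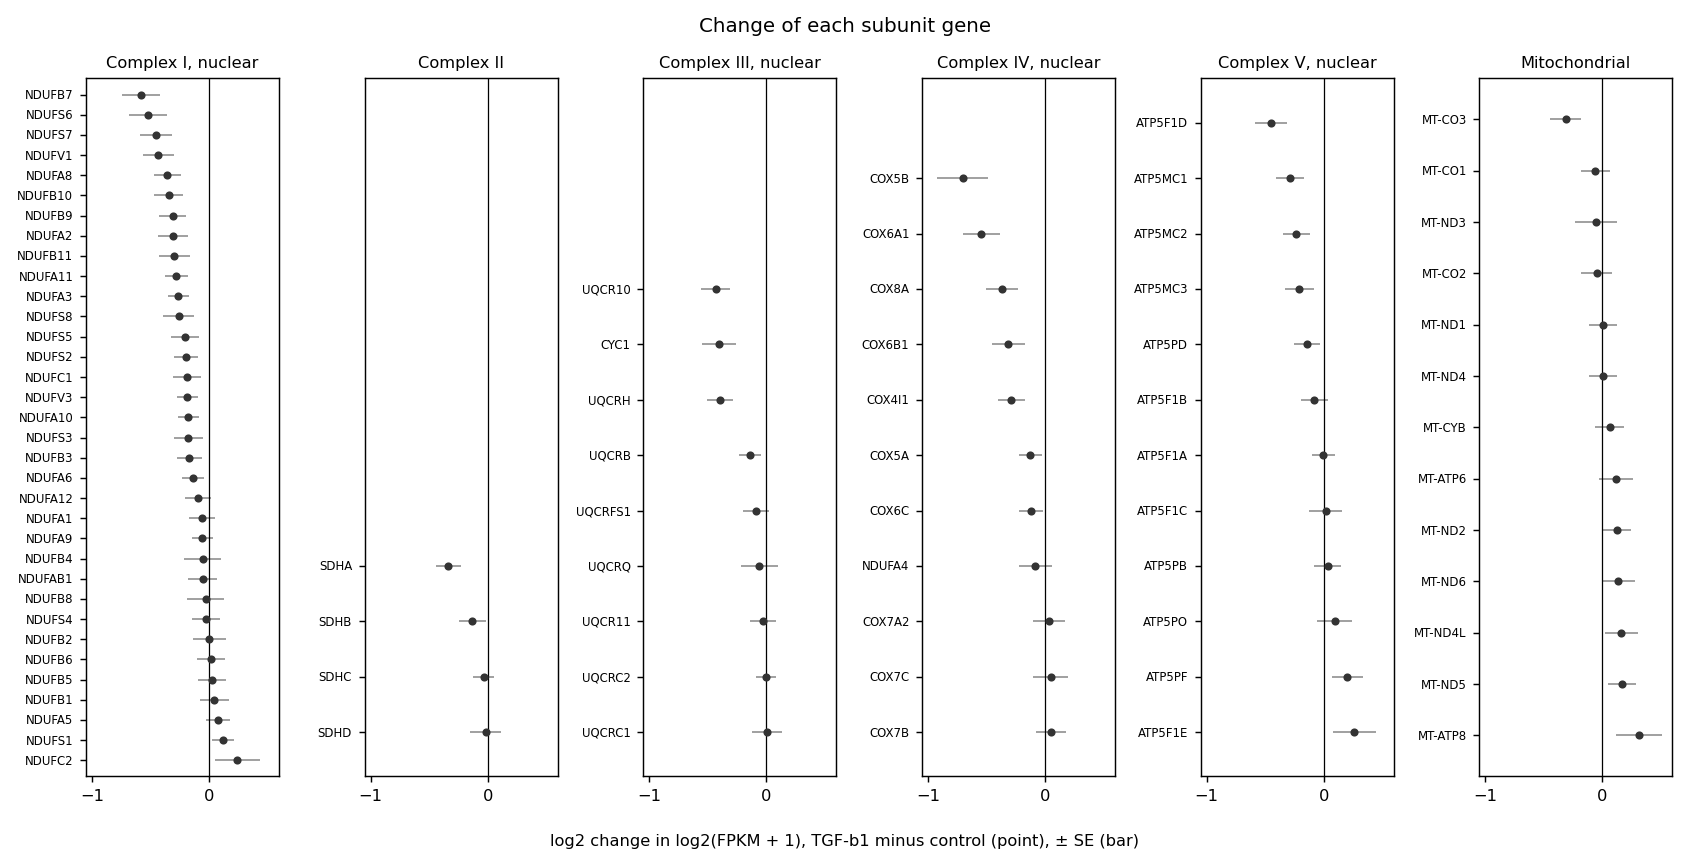
Log2 change of every member, TGF-β1 minus control, in log2(FPKM + 1), with bars of ± 1 SE from limma, sorted within each complex. Most nuclear members lie left of 0, from −0.70 (COX5B) to 0.26 (ATP5F1E), and the mitochondrial members lie on both sides of 0, from −0.31 (MT-CO3) to 0.31 (MT-ATP8).

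Control 3 stood apart from the other 2 controls for most nuclear members. In 58 of 70 nuclear members control 3 lay nearer to the TGF-β1 mean than to the mean of controls 1 and 2, beside 68.9% of all genes. The median deviation of the nuclear members from their 6-library means, in log2, was 0.05, 0.21 and −0.06 in controls 1 to 3 and −0.16, −0.09 and 0.02 in TGF-β1 1 to 3. Control 2 was the highest library for 40 nuclear members and TGF-β1 3 for 25, and TGF-β1 1 was the lowest for 37. The groups did not overlap, with every TGF-β1 library below every control, in 18 of 70 nuclear members, beside 12.5% of all genes, and in the opposite direction in 0, beside 14.6%. Without control 3, limma called 24 of 70 lower and 0 higher, beside 16.8% of genes lower and 12.8% higher, and the median was −0.19. Leaving out any other single library gave 0 calls among the nuclear members, beside 0.348% to 2.15% of genes lower. The smallest limma adjusted p of a nuclear member in those fits ran from 0.062 to 0.291. The values without control 3 given below for single genes share this limit.

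**Figure D2:**
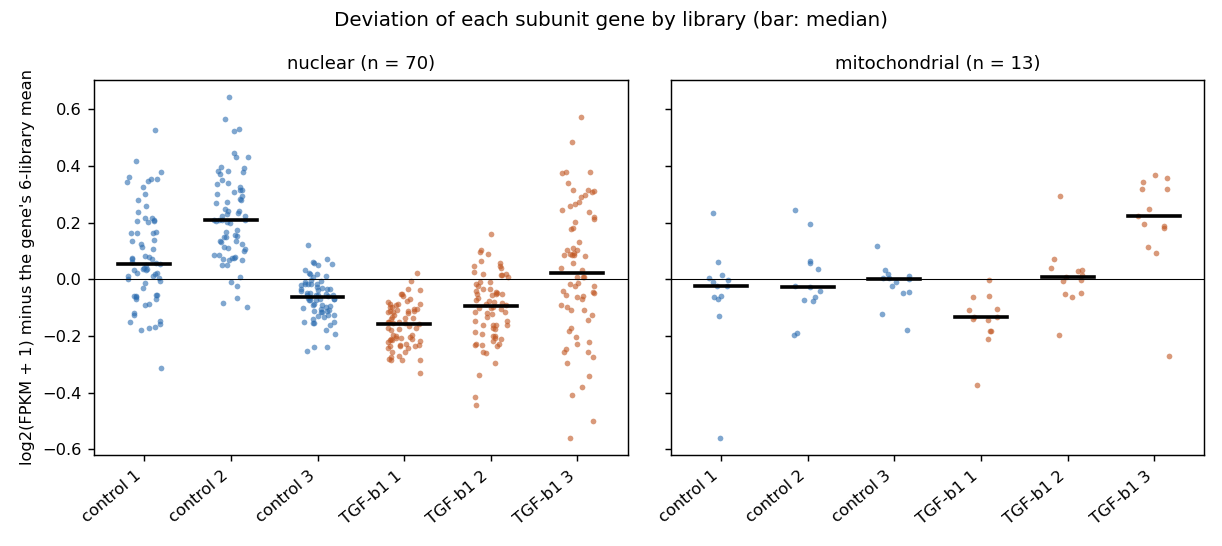
Deviation of log2(FPKM + 1) from the gene's 6-library mean for each nuclear member (left) and each mitochondrial member (right), 1 point per gene and a bar at the median of each library. Control 3 has a nuclear median of −0.06 against 0.05 and 0.21 in the other controls, and TGF-β1 3 has the highest mitochondrial median, 0.22.

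Complex I takes electrons from NADH. Of its 34 nuclear members, 27 had a change below 0, with a median of −0.18, 0 passed the test, and 12 had groups that did not overlap, all lower, beside 12.5% of all genes. NDUFB7, an accessory subunit of the membrane arm, had the lowest change: 185, 206 and 128 FPKM in the controls and 124, 110 and 106 FPKM after TGF-β1, or 173 ± 40.1 against 113 ± 9.60 (SD, n = 3 each). Every TGF-β1 library lay below every control, and control 3 was the control nearest to them. Its log2 change was −0.58 (SE 0.16, limma adjusted p = 0.085), and −0.78 without control 3 (adjusted p = 0.0057). NDUFB7 lies at chr19:14566078-14572062 (GRCh38, minus strand).

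NDUFS6, a zinc-binding accessory subunit of the arm that reaches into the matrix, held 35.9, 39.96 and 25.0 FPKM in the controls and 24.5, 20.3 and 23.3 FPKM after TGF-β1 (log2 change −0.52, SE 0.16, limma adjusted p = 0.109). NDUFS7, the core subunit that carries the last iron-sulfur cluster before ubiquinone, held 7.79, 8.61 and 5.88 FPKM and then 5.48, 5.51 and 4.38 FPKM (−0.45, SE 0.13, adjusted p = 0.092). Its exons overlap those of AC005329.1 and AC005329.3 over 49.1% of their length, so its fragments are uncertain. NDUFV1, the core subunit that binds NADH and FMN, held 33.0, 34.1 and 24.1 FPKM and then 24.03, 20.8 and 21.4 FPKM (−0.43, SE 0.13, adjusted p = 0.098). In all 3 genes the groups did not overlap, with control 3 as the lowest control.

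The most abundant complex I member, NDUFS5, an accessory subunit on the intermembrane side, held 281, 299.9 and 246 FPKM in the controls and 218, 242 and 258 FPKM after TGF-β1 (log2 change −0.20, limma adjusted p = 0.281), and its groups overlapped. The least abundant, NDUFA5, held 2.98, 2.99 and 3.24 FPKM and then 2.95, 3.23 and 3.74 FPKM. The highest change was that of NDUFC2, a membrane-arm subunit, with 4.99, 6.90 and 5.78 FPKM and then 5.11, 7.31 and 9.41 FPKM (0.24, SE 0.19, adjusted p = 0.442), whose exons overlap those of THRSP and the NDUFC2-KCTD14 readthrough over 18.1% of their length. The control and TGF-β1 values of NDUFA5 and NDUFC2 were interleaved, and the change of NDUFA5 turned from 0.08 to −0.13 with the trend on GC and length removed.

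Complex II, succinate dehydrogenase, also belongs to the citric acid cycle. SDHA, its flavoprotein, held 29.6, 31.7 and 25.8 FPKM in the controls and 24.1, 23.5 and 20.8 FPKM after TGF-β1, with no overlap (29.05 ± 2.96 against 22.8 ± 1.78, SD, n = 3 each). Its log2 change was −0.34 (SE 0.11, limma adjusted p = 0.106), and −0.41 without control 3 (adjusted p = 0.016). SDHB, the iron-sulfur subunit and the most abundant of the 4 at 65.0 FPKM, had a change of −0.13, and the membrane anchors SDHC and SDHD had changes of −0.03 and −0.02, with overlapping groups in each. SDHC was the least abundant at 12.3 FPKM, and the changes of SDHC and SDHD turned positive, 0.05 and 0.07, when scaled to the summed nuclear FPKM, as did that of SDHD after quantile normalization (0.02).

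Complex III passes electrons from ubiquinol to cytochrome c. Of its 9 nuclear members, 8 had a change below 0 (median −0.09), and all 9 had control 3 nearer to the TGF-β1 mean. UQCR10, a small accessory subunit at chr22:29767369-29770413 (GRCh38, plus strand), had the smallest adjusted p of all members. It held 84.4, 83.7 and 62.6 FPKM in the controls and 58.3, 55.6 and 54.7 FPKM after TGF-β1 (log2 change −0.43, SE 0.12, limma adjusted p = 0.084, or 0.0056 without control 3). UQCRH, the hinge protein between cytochrome c1 and cytochrome c, held 146, 163 and 125 FPKM and then 106, 110 and 111 FPKM (−0.40, SE 0.11, adjusted p = 0.086). In both genes the 3 TGF-β1 libraries lay close together, at 56.2 ± 1.86 and 109 ± 2.63 FPKM (SD, n = 3), below all controls.

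CYC1, cytochrome c1 itself and the most abundant nuclear member of complex III, held 177, 190 and 127 FPKM in the controls and 123, 120 and 124 FPKM after TGF-β1 (log2 change −0.40, SE 0.14, limma adjusted p = 0.132). UQCRC1, a core protein, held 138, 156 and 113 FPKM and then 130, 135 and 140 FPKM (0.01). That change was negative when median centred and with voom, and −0.12 without control 3. With the trend on GC and length removed it was 0.21 (limma adjusted p = 0.149), and 0.18 with control 3 left out as well. UQCRB, the least abundant and known to lie near the quinone site, held 7.08, 7.96 and 6.48 FPKM and then 6.18, 6.65 and 6.41 FPKM (−0.14). The groups of UQCRC1 and of UQCRB overlapped.

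Complex IV, cytochrome c oxidase, reduces oxygen. Of its 11 nuclear members, 8 had a change below 0 (median −0.12), and 1, COX4I1, had groups that did not overlap, a smaller share than the 12.5% of all genes. COX5B, a zinc-binding subunit on the matrix side at chr2:97646040-97648383 (GRCh38, plus strand), had the lowest change of all members: 71.7, 77.8 and 45.5 FPKM in the controls and 47.7, 36.1 and 33.3 FPKM after TGF-β1, or 65.0 ± 17.1 against 39.0 ± 7.62 (SD, n = 3 each). Control 3 lay below TGF-β1 1, so the groups overlapped. The log2 change was −0.70 (SE 0.22, limma adjusted p = 0.125), and −0.94 without control 3 (adjusted p = 0.0092).

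COX6A1, the widely expressed form of subunit 6A, held 50.4, 56.8 and 37.6 FPKM in the controls and 37.6, 32.7 and 27.5 FPKM after TGF-β1 (log2 change −0.54, SE 0.16, limma adjusted p = 0.101). COX8A, the most abundant nuclear member of complex IV, held 380, 376 and 270 FPKM and then 256, 254 and 276 FPKM (−0.37, SE 0.14, adjusted p = 0.147). The exons of COX8A overlap those of AP000721.1 over 34.5% of their length. COX7B, the least abundant and the one with the highest change (0.05), held 18.4, 21.2 and 19.8 FPKM and then 17.0, 20.4 and 24.9 FPKM. The groups of all 3 genes overlapped, and control 3 was the lowest control for COX6A1 and COX8A but not for COX7B. The change of COX7B was −0.04 with the trend on GC and length removed.

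Complex V makes ATP, and its 12 nuclear members lay on both sides of 0: 7 had a change below 0, with a median of −0.04. ATP5F1D, the δ subunit of the central stalk, held 139, 150 and 101 FPKM in the controls and 93.3, 95.3 and 92.4 FPKM after TGF-β1, without overlap (log2 change −0.45, SE 0.14, limma adjusted p = 0.102, or 0.0052 without control 3). ATP5F1D was called lower with voom, but not with the trend on GC and length removed, with or without control 3. ATP5F1E, the ε subunit that sits beside it in the stalk, held 23.6, 24.9 and 24.4 FPKM and then 21.99, 28.7 and 40.2 FPKM (0.26, SE 0.19, adjusted p = 0.384), with both the lowest and the highest value after TGF-β1 and 23.2% of its exon length shared with TUBB1. These neighbours in the stalk had the lowest and the highest change of the complex, and the difference between the genes was not tested.

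ATP5F1B, the catalytic β subunit, held 447, 484 and 416 FPKM in the controls and 392, 421 and 463 FPKM after TGF-β1 (−0.08), a change that was 0.01 when scaled to the summed nuclear FPKM and 0.10 after quantile normalization. ATP5PO, the least abundant of complex V and part of the stalk that holds the head in place, held 12.96, 14.5 and 14.8 FPKM and then 11.8, 15.2 and 19.2 FPKM (0.10). In both genes TGF-β1 1 was the lowest of the TGF-β1 libraries and TGF-β1 3 the highest. ATP5MC1, ATP5MC2 and ATP5MC3, which encode the same mature c subunit of the rotor ring, had changes of −0.28, −0.23 and −0.21, and all 3 were called lower without control 3 (limma adjusted p = 0.013, 0.023 and 0.014).

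**Figure D3:**
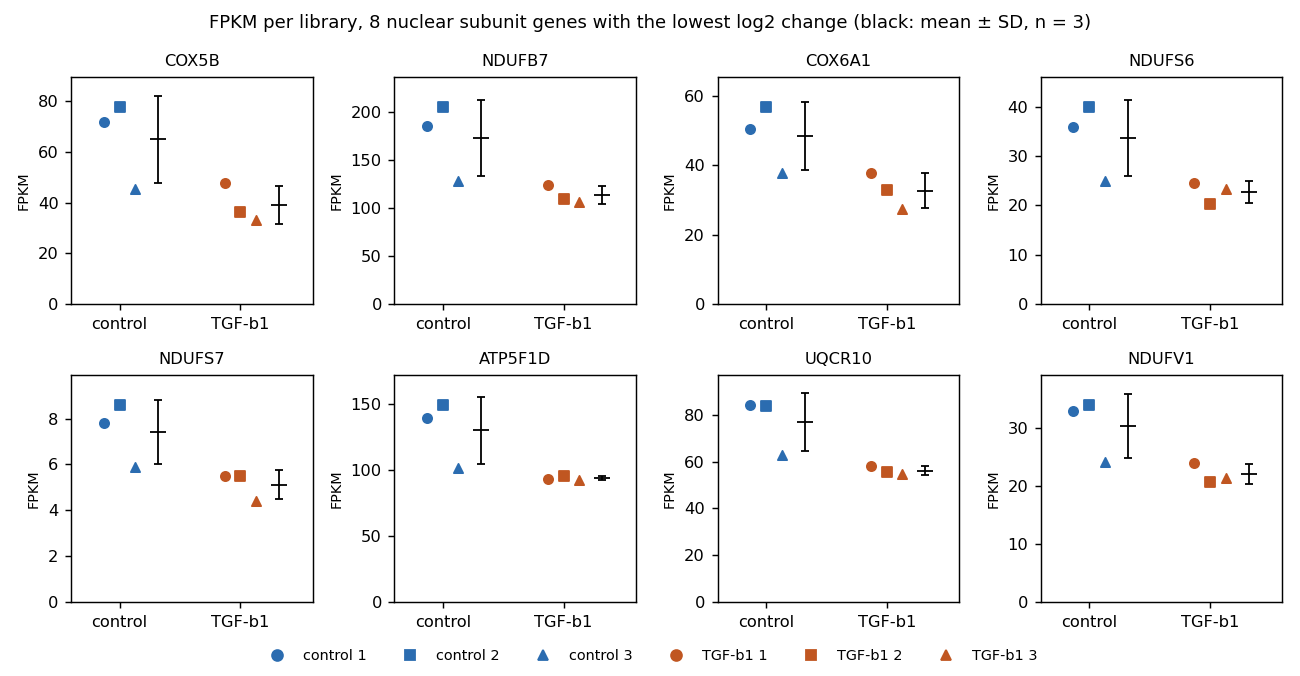
FPKM in each library for the 8 nuclear members with the lowest log2 change, with the mean and SD of each group (n = 3) in black. Control 3, the blue triangle, is the lowest control in each panel, at 128 FPKM for NDUFB7 and 45.5 FPKM for COX5B, close to the TGF-β1 libraries.

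The change of the nuclear members moved with the base composition of their transcripts. Over the 70 genes, Pearson's r between log2 change and GC content of the longest transcript was −0.59 (Spearman's rho −0.61), and over 11292 genes tested with a transcript match it was −0.54 (rho −0.62). These are descriptions across genes of the same 6 libraries. In each library the log2 deviations of all genes from their 6-library means were fitted on GC and length. The slope per 10% of GC, which is relative to the other libraries, was 0.14, 0.14 and −0.05 in controls 1 to 3. It was −0.01, −0.09 and −0.13 in TGF-β1 1 to 3, so control 3 lay with the TGF-β1 libraries here as well. The 25 nuclear members with at least 50% GC had a median change of −0.29, with 23 below 0 (92%, beside 76.9% of such genes in all). The other 45 members had a median of −0.08, with 31 below 0 (68.9%, beside 25.1% of such genes).

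With the trend on GC and length removed from each library, r over the 70 nuclear members was 0.06 and their median change was −0.10, with 60 below 0, beside 48.6% of all genes. In that fit limma called 1 of 70 lower, UQCRH, at a log2 change of −0.31 (adjusted p = 0.037), beside 1.8% of genes lower. NDUFB7, with 65.0% GC, went from −0.58 to −0.22 (adjusted p = 0.112), and CYC1, with 64.5%, from −0.40 to −0.09. COX6A1, with 40.8% GC, had −0.54 before and −0.59 after (adjusted p = 0.183), and SDHA, with 49.8%, had −0.34 and −0.36 (adjusted p = 0.068). With the trend removed and control 3 left out, a fit added after the data were seen, 16 of 70 were lower, beside 4.48% of genes, and 13 of these were among the 24 called without control 3. What part base composition or control 3 has in the lower levels was not tested.

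**Figure D4:**
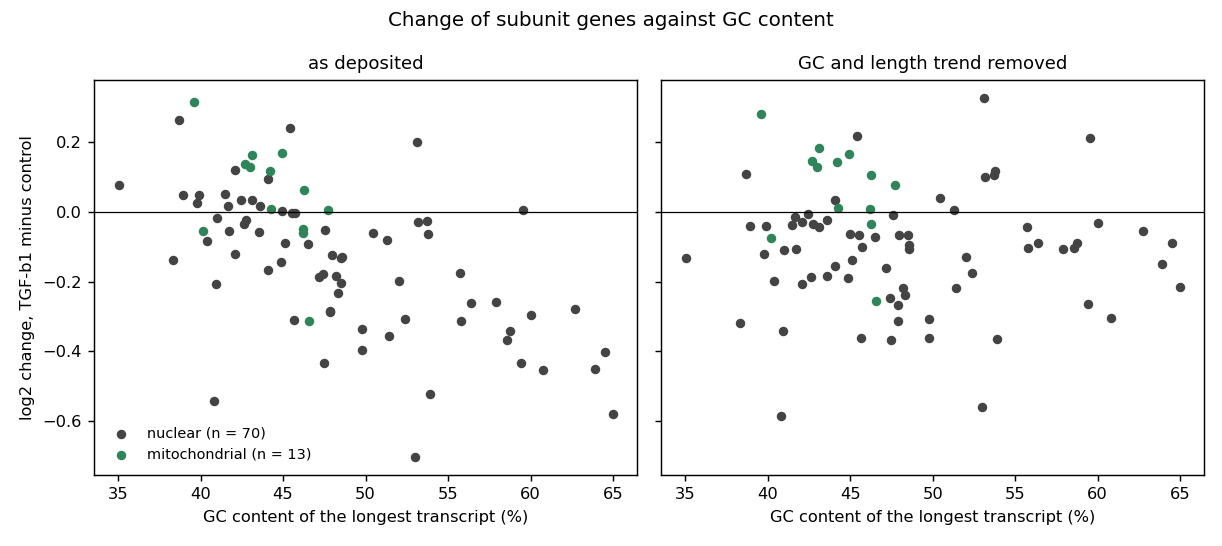
Log2 change of each member (TGF-β1 minus control) against the GC content of its longest transcript in percent, as deposited (left) and with the GC and length trend of each library removed (right), 70 nuclear genes in grey and 13 mitochondrial genes in green. The downward slope over the nuclear genes on the left (r = −0.59) is not seen on the right (r = 0.06), where 60 of the 70 still lie below 0.

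The promoters of the nuclear members were searched because these genes are known to share regulators. RefSeq windows on GRCh38.p14, from 250 bases before to 50 bases after a start, were matched by symbol for 57 of 70 genes, 69 windows in all. The NRF1 motif GCGCATGCG was in 10 windows (14.5%), beside 1.92% of 35116 windows of the same length. The ETS motif CCGGAAG was in 18 (26.1%), beside 10.3%, and the YY1 motif AAGATGGCG in 9 (13.04%), beside 1.75%. Both strands were searched, no motif contains another, and a match is a description of these letters, not of a bound site. Of the 22 windows of genes that were lower without control 3, 5 held the NRF1 motif, 7 the ETS motif and 1 the YY1 motif.

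The windows of 4 members with low changes, picked because they hold a match and each on the plus strand of GRCh38.p14, are printed 5′ to 3′ from 250 bases before to 30 bases after the start, with matches in capitals on whichever strand they lie. NDUFV1 and UQCR10, whose changes were lower than that of UQCRH, had 0 matches in their windows. NDUFS6 (chr5:1801157-1801436) and NDUFS7 (chr19:1383657-1383936) show the NRF1 motif from positions −46 and −74, and NDUFS7 also the YY1 motif from position 18 after the start. COX6A1 (chr12:120437863-120438142) shows the NRF1 motif from −219 and the ETS motif from −16, and UQCRH (chr1:46303448-46303727) the ETS motif from −46. Position −1 is the base just before the start.
NDUFS6: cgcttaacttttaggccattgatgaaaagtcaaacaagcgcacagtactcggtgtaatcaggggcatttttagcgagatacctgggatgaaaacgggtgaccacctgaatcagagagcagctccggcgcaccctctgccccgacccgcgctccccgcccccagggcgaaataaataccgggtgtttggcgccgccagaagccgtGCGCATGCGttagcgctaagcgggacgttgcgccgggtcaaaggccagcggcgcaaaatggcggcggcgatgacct
NDUFS7: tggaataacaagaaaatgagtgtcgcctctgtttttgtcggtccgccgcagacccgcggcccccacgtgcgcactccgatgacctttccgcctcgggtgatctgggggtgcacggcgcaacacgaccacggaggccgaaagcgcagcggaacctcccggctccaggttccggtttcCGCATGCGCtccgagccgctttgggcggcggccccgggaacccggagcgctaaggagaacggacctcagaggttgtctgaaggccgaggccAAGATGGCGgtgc
COX6A1: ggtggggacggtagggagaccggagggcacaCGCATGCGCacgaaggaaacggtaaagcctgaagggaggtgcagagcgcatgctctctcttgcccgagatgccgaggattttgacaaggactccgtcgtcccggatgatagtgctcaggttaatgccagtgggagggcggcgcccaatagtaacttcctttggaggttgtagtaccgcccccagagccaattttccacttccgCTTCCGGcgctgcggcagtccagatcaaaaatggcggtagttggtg
UQCRH: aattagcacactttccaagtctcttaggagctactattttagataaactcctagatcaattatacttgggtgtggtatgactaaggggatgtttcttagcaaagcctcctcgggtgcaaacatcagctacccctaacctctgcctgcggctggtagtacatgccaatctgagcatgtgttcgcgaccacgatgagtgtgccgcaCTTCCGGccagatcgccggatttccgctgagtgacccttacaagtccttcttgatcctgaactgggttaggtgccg

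For the mitochondrial members, limma called 0 of 13 higher and 0 lower, with 1 at an unadjusted p under 0.05, and voom also called 0. The median change was 0.06, with 9 above 0 and 4 below. Scaled to the summed nuclear FPKM, 12 were above 0, and median centred 7. In none of the 13 genes were the groups apart, and TGF-β1 3 was the highest library for 12 of 13, while TGF-β1 1 was the lowest for 8. Without TGF-β1 3, 9 of 13 changes were below 0 and the median was −0.02.

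**Figure D5:**
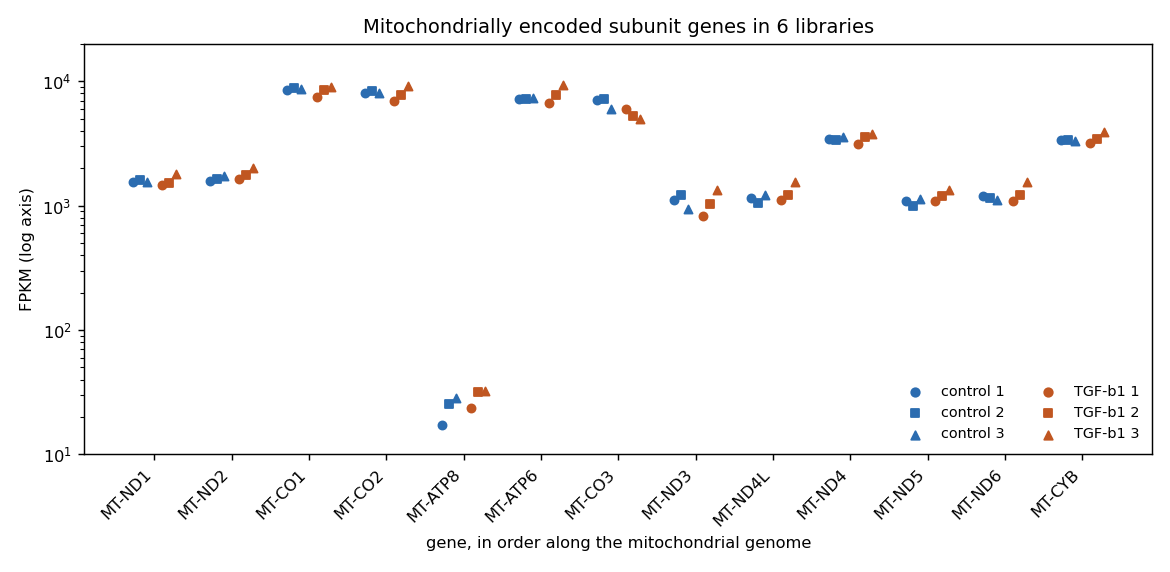
FPKM of the 13 mitochondrial members in each library on a log axis, in order along the mitochondrial genome, controls in blue and TGF-β1 libraries in orange. TGF-β1 3, the orange triangle, is the highest library for 12 of 13 genes and the lowest for MT-CO3, and MT-ATP8 lies far below the rest.

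Of the mitochondrial complex I genes, which encode the proton-pumping membrane arm, MT-ND4 was the most abundant, at 3461, 3368 and 3548 FPKM in the controls and 3162, 3544 and 3756 FPKM after TGF-β1 (log2 change 0.01). MT-ND1 held 1557, 1622 and 1556 FPKM and then 1468, 1515 and 1792 FPKM (0.01), and MT-ND2 1570, 1627 and 1731 FPKM and then 1648, 1754 and 2005 FPKM (0.13). The changes of MT-ND1 and MT-ND4 turned negative when median centred and with voom, and that of MT-ND4 after quantile normalization too. Those of MT-ND3, MT-ND4L, MT-ND5 and MT-ND6 were −0.05, 0.16, 0.17 and 0.14, with levels of 820 to 1346, 1059 to 1559, 994 to 1350 and 1100 to 1555 FPKM over the 6 libraries. MT-ND3 had a change of 0.03 when scaled to the summed nuclear FPKM and 0.09 after quantile normalization. MT-ND6 is the only mitochondrial member read from the other DNA strand, and its highest library was TGF-β1 3 as for the other ND genes.

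MT-CYB, cytochrome b, the mitochondrial subunit of complex III, held 3357, 3360 and 3304 FPKM in the controls and 3176, 3431 and 3904 FPKM after TGF-β1 (log2 change 0.06, limma adjusted p = 0.758). MT-CO1, MT-CO2 and MT-CO3 form the core of complex IV. MT-CO1 was the most abundant member, at 8602, 8847 and 8631 FPKM and then 7495, 8499 and 9083 FPKM (−0.06), and MT-CO2 held 8042, 8386 and 8040 FPKM and then 6929, 7734 and 9143 FPKM (−0.05). Both changes turned positive, 0.03 and 0.04, when scaled to the summed nuclear FPKM. The 3 controls of each gene lay inside the range of the TGF-β1 libraries.

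MT-CO3 had the lowest change of the mitochondrial members as deposited. It held 7111, 7160 and 6003 FPKM in the controls and 6033, 5270 and 5004 FPKM after TGF-β1 (log2 change −0.31, SE 0.13, limma adjusted p = 0.178). The groups overlapped by 1 library, with control 3 just below TGF-β1 1. Without control 3 the change was −0.40 (adjusted p = 0.041), and with voom the adjusted p was 0.059. Quantile normalization gives each gene the value of its rank in a library. MT-CO3 lay below MT-CO1, MT-CO2 and MT-ATP6 and above the other mitochondrial members in all 6 libraries, and its group means were equal in that setting. That setting therefore cannot show whether MT-CO3 changed. Over the other settings besides these the adjusted p ran from 0.124 to 0.512. In TGF-β1 3, the library in which the other 12 genes were highest, MT-CO3 was at its lowest.

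Of the mitochondrial complex V genes, MT-ATP6, which encodes the proton channel subunit, held 7187, 7221 and 7302 FPKM in the controls and 6644, 7741 and 9398 FPKM after TGF-β1 (log2 change 0.12). MT-ATP8 held 17.3, 25.4 and 28.2 FPKM and then 23.5, 32.03 and 32.5 FPKM (0.31, SE 0.19, limma adjusted p = 0.328), from 80 to 160 fragments per library. Its groups overlapped, and its FPKM was the lowest of the mitochondrial members. MT-ATP8 (chrM:8366-8572, GRCh38, plus strand) and MT-ATP6 are read from overlapping coding sequences, so fragments in the shared stretch cannot be assigned to one of them. The 207 bases of MT-ATP8, from the GENCODE release 29 transcripts, are printed with the 46 bases that it shares with MT-ATP6 (chrM:8527-8572) in capitals. MT-ND4L and MT-ND4 share 7 bases in the same way.
MT-ATP8: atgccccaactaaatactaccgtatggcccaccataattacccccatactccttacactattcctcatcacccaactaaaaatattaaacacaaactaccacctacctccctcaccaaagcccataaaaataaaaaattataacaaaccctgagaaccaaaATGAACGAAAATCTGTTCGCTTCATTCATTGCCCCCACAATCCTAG

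The ratio of summed mitochondrial to summed nuclear subunit FPKM was 10.3, 9.57 and 11.9 in the controls and 11.5, 12.05 and 12.5 after TGF-β1. Control 3 lay between TGF-β1 1 and TGF-β1 2, so the groups overlapped. The nuclear sum was 4323 ± 533 FPKM in the controls and 3734 ± 227 FPKM after TGF-β1, and the mitochondrial sum 45355 ± 754 and 44931 ± 4665 FPKM (SD, n = 3 each).

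Other genes of the pathway were taken as lists and gave 0 calls in limma, whereas without control 3 some passed, beside 16.8% of all genes lower and 12.8% higher in that fit. Of 18 complex I assembly factors 4 were then lower. Of 10 factors for complexes II and III 3 were lower and 1 higher, of 19 tested for complex IV 4 were lower and 1 higher, and of 4 for complex V 0. For complexes I and IV these shares lie near that of all genes. The members of largest change were NDUFAF3 (−0.39, adjusted p = 0.082), UQCC3 (−0.51, adjusted p = 0.063), TACO1, an activator of MT-CO1 translation (−0.48, adjusted p = 0.076), and TMEM242 (0.17). With the GC and length trend removed, UQCC1, a complex III assembly factor, was lower at −0.28 (adjusted p = 0.042), beside 1.8% of all genes.

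Of 26 tested genes of mitochondrial transcription and its regulators, which had a median change of 0.13, 5 were higher and 3 lower without control 3, near the 12.8% and 16.8% of all genes. The one of largest change was ESRRA, a nuclear receptor that acts on these genes (−0.37, limma adjusted p = 0.117). PPARGC1A, the coactivator of that network, was at most 0.0473 FPKM in any library. Of 74 tested mitochondrial ribosome genes 56 had a change below 0 (median −0.13), beside 48% of all genes. Without control 3, 28 were lower and 0 higher, beside 16.8% and 12.8% of all genes. MRPL12, of the large ribosomal subunit, had the largest change, −0.91 (adjusted p = 0.160), and MRPS5 and MRPS6 of the small subunit were lower with the trend removed (adjusted p = 0.044 and 0.042), beside 1.8% of all genes.

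The 17 citric acid cycle genes had a median change of −0.10, with 5 lower and 1 higher without control 3, beside 16.8% and 12.8% of all genes. IDH2, a mitochondrial isocitrate dehydrogenase, had the largest change, −0.36 (limma adjusted p = 0.134). Of 7 membrane carriers 2 were lower without control 3, beside the same 16.8% of all genes. SLC25A6, an ADP/ATP carrier, held 240, 246 and 175 FPKM in the controls and 159, 139 and 128 FPKM after TGF-β1, without overlap (−0.62, SE 0.15, adjusted p = 0.055). Its symbol had no unique match in the annotation, so the trend on GC and length could not be removed from its values. Of 9 tested other subunits, tissue isoforms and cytochrome c genes 3 were lower without control 3, beside 16.8% of all genes, and ATP5MF had the largest change, −0.46 (adjusted p = 0.141). The tissue isoforms COX6A2, COX7B2 and COX8C were listed at 0 in all libraries.

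Of 21 tested ribosomal and transfer RNA genes of the mitochondrial genome, 2 were higher and 2 lower without control 3, smaller shares than the 12.8% and 16.8% of all genes. MT-TD had the largest change, 0.99 (limma adjusted p = 0.294), at 0.650 to 6.81 FPKM, and MT-TG was lower with the trend removed, at −0.43 (adjusted p = 0.031). The ribosomal RNAs MT-RNR1 and MT-RNR2 held 840, 830 and 689 FPKM and 1517, 1587 and 1317 FPKM in the controls, and 839, 683 and 476 FPKM and 1184, 1152 and 1230 FPKM after TGF-β1. The groups overlapped for MT-RNR1 and did not for MT-RNR2.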

How the data were processed

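RNA of 6 T24 libraries, 3 control and 3 TGF-β1, was sequenced with 150 bp paired ends, per the labels. The deposited values are FPKM per gene, which the authors made with HISAT2 2.0.5 and featureCounts 1.5.0-p3 on hg38, per the submitters' processing notes. The sources used here do not name the strand setting or the annotation. The first 11 rows of the table are mapping totals and were left out.

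FPKM times the exon length in GENCODE release 29 (GRCh38), with 1 factor per library, gave whole fragments for 99.999% of 126561 values above 0 (within 0.05), which supplied depth and the fragments for voom. Of 58735 rows, 56923 matched a unique symbol. Genes with at least 1 FPKM in 3 libraries were tested on log2(FPKM + 1) with limma 3.58.1 (trend, robust) in R 4.3.3, with Benjamini-Hochberg adjustment over all 11363, and the steps were tested on simulated data. In voom on the fragments, called for 11296 genes, 339 were higher and 720 lower. GC and length trends were removed by loess (span 0.5) in each library.

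The members and lists were chosen with earlier results of these data known. Genes named are the mitochondrial members; the nuclear members of highest and lowest level and change per complex; list members past the threshold or of largest change; those beside the level rule; and PMEPA1 and SMAD7. Other names (NDUFS6, NDUFS7, NDUFV1, UQCRH, COX6A1, COX4I1, ATP5F1A, the ATP5MC genes, PPARGC1A, the ribosomal RNAs, and the marker and tissue isoform genes) were chosen after their values were seen. Alternatives were the pseudocount, the level filter, scaling, quantile normalization, variance settings, a replicate block, leaving out each library, the GC and length trend, protein-coding genes only, and voom.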

Additional observations from a re-analysis of the deposited data

How the results depend on the processing

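Of all genes, 277 were called with the main settings, 15 with no filter, 500 at 5 FPKM or more, 842 among protein-coding genes alone, 491 after removal of the GC and length trend, 980 after that without control 3, 1059 with voom, and 123 to 3307 when 1 library was left out. The direction was 207 higher and 155 lower when scaled to the summed nuclear FPKM, and 287 higher and 204 lower after removal of the trend. Of the nuclear members, 0 were called with the main settings, 4 at 5 FPKM or more, 9 among protein-coding genes alone, 1 after removal of the trend, 16 after that without control 3, 12 with voom, and 0 to 24 when 1 library was left out, where 24 is without control 3 and each other library gave 0. All these nuclear calls were lower. The share of all genes lower was 1.29% with the main settings, 4.79% at 5 FPKM or more and 5.47% among protein-coding genes. It was 1.8% after removal of the trend, 4.48% after that without control 3, and 6.37% with voom. With 1 library left out it ran from 0.348% to 16.8%. At 5 FPKM or more 67 nuclear members were tested, and the 4 called (5.97%) lie near the share of all genes. The mitochondrial count was 0 to 1. The cause was not tested.

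Same-numbered libraries of the groups correlated at 0.25, −0.07 and 0.17 in their deviations, so the numbers were not taken as pairs. With a replicate block 767 genes and 5 nuclear members (COX5B, COX6A1, NDUFB7, NDUFS7 and SDHA) were called, and with the trend removed and the block 580 genes and 5 nuclear members. The nuclear members called were lower in both fits, 7.14% of them, beside 4.56% and 2.51% of all genes lower. Controls 1 and 3 correlated best with their own number, and control 2 did not. Libraries of unlike number correlated at −0.24 to 0.07.

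Of 32 named members, 15 changed sign under some setting, all at changes that did not pass. When scaled to the summed nuclear FPKM, MT-CO1 was 0.027, MT-CO2 0.039, MT-ND3 0.034, SDHC 0.046, SDHD 0.067 and ATP5F1B 0.0082. When quantile normalized, MT-ND3 was 0.091, MT-ND4 −0.015, SDHD 0.020 and ATP5F1B 0.10. When median centred, MT-ND1 was −0.0034, MT-ND4 −0.0018 and UQCRC1 −0.0042. With voom, MT-ND1 was −0.010, MT-ND4 −0.0088 and UQCRC1 −0.011. After removal of the trend, with or without the block, MT-CO2 was 0.0077, NDUFA5 −0.13, COX7B −0.039 and ATP5F1B 0.0070. After that without control 3, MT-CO2 was 0.037, NDUFA5 −0.19 and COX7B −0.061. Leaving out 1 library gave MT-ATP6 from −0.013 to 0.24, MT-CO1 from −0.12 to 0.016, MT-CO2 from −0.16 to 0.044, MT-CYB from −0.017 to 0.13, MT-ND1 from −0.082 to 0.063, MT-ND3 from −0.24 to 0.12, MT-ND4 from −0.047 to 0.077, MT-ND6 from −0.0065 to 0.24, SDHC from −0.10 to 0.011, SDHD from −0.17 to 0.10, UQCRC1 from −0.12 to 0.11, COX7B from −0.083 to 0.18 and ATP5PO from −0.067 to 0.26. Depth limits MT-ATP8 most, at 80 to 160 fragments per library.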
